A study of Mus musculus with 18 samples.

Results

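The 9 genes described here are markers of the granule cells of the dentate gyrus: Prox1, C1ql2, Dsp, Tdo2, Calb1, Lct, Stxbp6, Trpc6 and Glis3. They were taken by symbol from a table of 22063 genes, and all 9 passed the filter on low counts that left 14763 genes for testing. RNA was sequenced from 18 mouse hippocampus samples in 4 groups. Control (n = 3) is called a blank control, with no further description. Mice of S-V (n = 5) were spun in a single direction with sight blocked, those of D+V (n = 5) in both directions with sight free, and those of D-V (n = 5) in both directions with sight blocked, which is the condition given as the Coriolis illusion. Tissue was taken right after rotation in the rotated groups. The labels used here give no strain, age or sex and do not say that each sample came from a separate animal, so p-values measure only the spread between these samples. Totals ran from 15.03 to 25.31 M estimated counts per library.

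Granule cells are the principal excitatory neurons of the dentate gyrus. They receive the input from the entorhinal cortex and send mossy fibres to the hilus and to CA3, and new ones are added throughout adult life in mice. Their transcript makeup differs between the dorsal and the ventral pole of the hippocampus. Prox1 encodes the homeobox transcription factor that specifies granule cell identity, and Glis3 encodes a zinc finger transcription factor. C1ql2 encodes a secreted C1q-like protein of mossy fibre synapses, and Stxbp6 encodes amisyn, which binds SNARE proteins. Calb1 encodes the calcium buffer calbindin, which CA1 pyramidal cells and some interneurons also make, and Trpc6 encodes a cation channel. Dsp encodes desmoplakin of desmosomes, Tdo2 the tryptophan-degrading enzyme tryptophan 2,3-dioxygenase, and Lct lactase.

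Of the 9 members 8 had an entry among the RefSeq promoters of build GRCm38.p6, with 9 promoters in all because Prox1 has more than 1 start. The 250 bases before the start are printed below for 3 members, Prox1 as the gene of cell identity and C1ql2 and Lct as the members with the lowest mean ratios of D+V to Control. Capitals mark E-boxes, the sequence CANNTG bound by many neuronal transcription factors, and the TATA box TATAAA, both searched on both strands. Prox1 is at chr1:190170828-190171077 on the minus strand, C1ql2 at chr1:120340332-120340581 on the plus strand, and Lct at chr1:128328319-128328568 on the minus strand.
Prox1: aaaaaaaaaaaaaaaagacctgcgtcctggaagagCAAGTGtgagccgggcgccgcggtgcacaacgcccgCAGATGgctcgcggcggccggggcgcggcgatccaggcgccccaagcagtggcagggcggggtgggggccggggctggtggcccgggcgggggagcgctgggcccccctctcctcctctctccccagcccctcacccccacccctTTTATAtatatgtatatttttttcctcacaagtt
C1ql2: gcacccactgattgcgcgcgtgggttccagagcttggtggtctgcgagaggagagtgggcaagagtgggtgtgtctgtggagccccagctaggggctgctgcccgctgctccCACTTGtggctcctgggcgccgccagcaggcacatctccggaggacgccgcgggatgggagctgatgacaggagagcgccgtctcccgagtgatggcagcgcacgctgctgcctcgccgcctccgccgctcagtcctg
Lct: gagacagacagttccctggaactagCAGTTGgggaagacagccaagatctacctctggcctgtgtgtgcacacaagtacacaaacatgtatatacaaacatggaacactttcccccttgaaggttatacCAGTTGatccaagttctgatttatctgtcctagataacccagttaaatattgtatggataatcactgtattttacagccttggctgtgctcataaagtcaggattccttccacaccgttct
The Prox1 window held 2 E-boxes and 1 TATA box, that of C1ql2 held 1 E-box and that of Lct held 2 E-boxes. Over all members, 5 of 9 promoters held an E-box, against 66.2% of 32851 RefSeq promoters searched over the same length. The GC box GGGCGG was found on either strand in 4 of 9 against 32.7%, and the TATA box in 2 of 9 against 12.4%. The sequences are 64.8% (Prox1), 68.8% (C1ql2) and 42.8% (Lct) G and C. A match describes letters in the window and not a bound site.

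All 9 members were detected in every library, so that dentate gyrus transcripts were present in all 18. Prox1 shares 133 exon bases with the antisense gene Prox1os, and Dsp shares 499 with the antisense gene Gm10129. As strand use in counting is not given in the sources used here, reads from those stretches could not be told apart. Levels between genes were compared as CPM (estimated counts scaled to a library total of 1 M) per kilobase of exon, with exon lengths from GENCODE vM21, which may differ from the gene models the authors counted. C1ql2 was the most abundant at 50.5 ± 10.1 CPM per kilobase (SD over all 18 libraries), followed by Calb1 at 33.1 ± 4.11, Stxbp6 at 24 ± 3.83 and Prox1 at 14.4 ± 2.44. The lower levels were those of Lct at 9.9 ± 2.9, Dsp at 5.51 ± 1.34, Trpc6 at 3.84 ± 0.705, Tdo2 at 2.2 ± 0.515 and Glis3 at 1.38 ± 0.245 CPM per kilobase. Each gene's range over the 18 libraries overlapped that of the next gene in this order. All values below are CPM without division by length.

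The median member varied more from library to library than the median gene. The members' median coefficient of variation over the 18 libraries was 18.3%, against 12.7% for all 14763 tested genes and 10.6% for the 8987 tested genes whose mean CPM lay within the members' range. Lct varied most, at 29.3% with a 3.29-fold range between its lowest and highest library, and Calb1 least, at 12.4% with a 1.5-fold range. The libraries at the ends of the order belonged to the same group. Control replicate 1 lay below the 18-library median for all 9 members and was the lowest of all libraries for 2 of them. Control replicate 3 lay above the median for 8 members and was the highest library for 4, namely Prox1, C1ql2, Lct and Stxbp6. In the rotated groups S-V replicate 3 was above the median for all 9, while S-V replicate 4, D+V replicate 3 and D-V replicate 3 were above it for 1 member each.

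**Figure D1:**
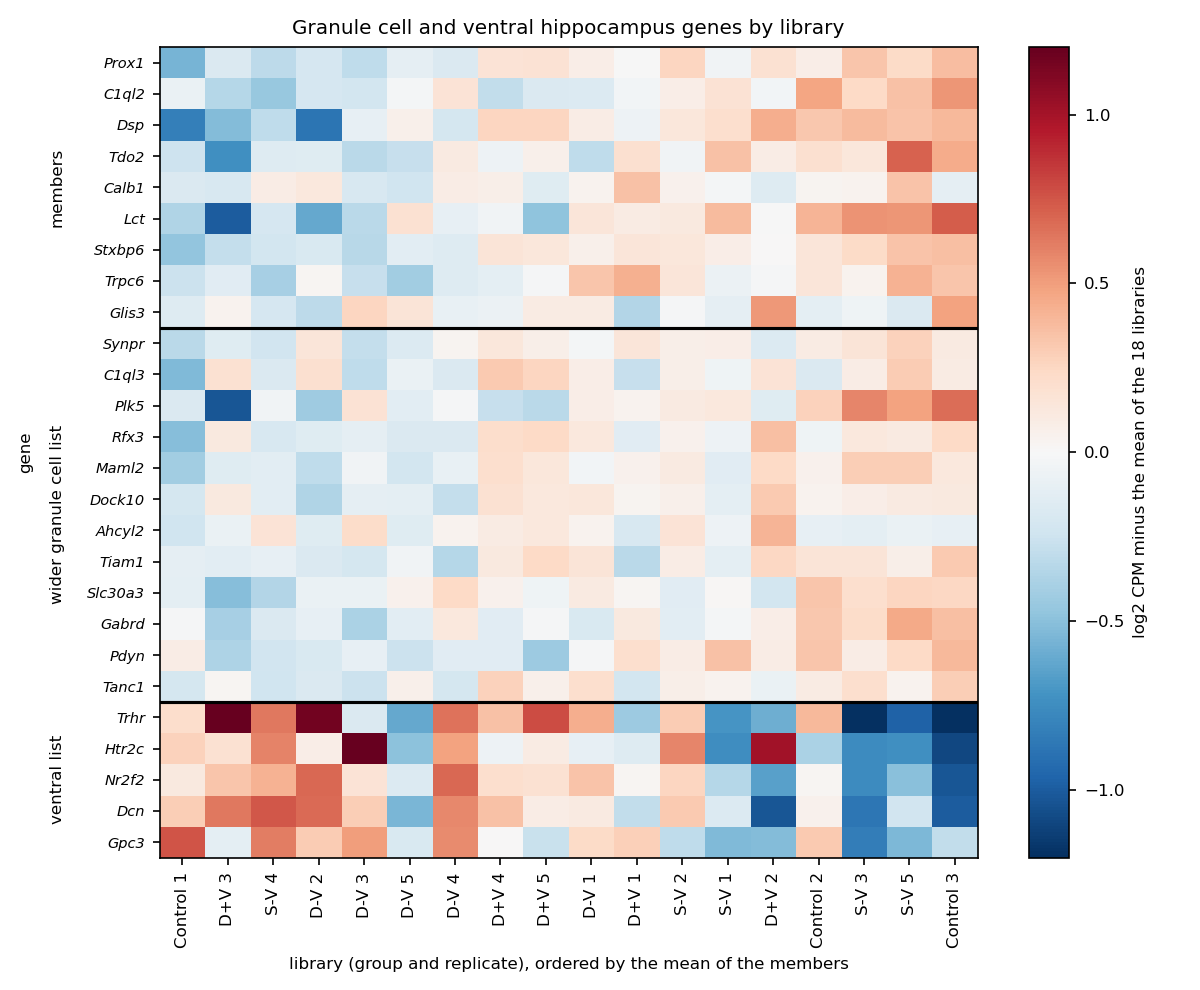
Heat map of log2 CPM minus the mean of the 18 libraries (color) for the 9 members, 12 further granule cell genes and 5 ventral hippocampus genes (rows). Libraries (columns) are ordered by the mean of the members, so that the order itself is set by the upper block; Control replicates 1 and 3 stand at opposite ends, and the ventral genes run from red to blue as the members run from blue to red.

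The transcription factor Prox1 showed this spread inside the controls. In Control, Prox1 stood at 81.1, 126 and 154 CPM in replicates 1, 2 and 3, and in S-V at 116, 143, 150.5, 96.2 and 140.4 CPM in replicates 1 to 5. In D+V, Prox1 was at 119, 136, 106, 134 and 135 CPM, and in D-V at 126, 104, 96.7, 106 and 111 CPM. The 3 controls spanned every value of the rotated libraries, and S-V replicate 4 and D+V replicate 3 were the lowest of their groups. Means ± SD of Prox1 were 121 ± 37 CPM for Control (n = 3), 129 ± 22.4 for S-V, 126 ± 13.1 for D+V and 109 ± 10.8 for D-V (n = 5 each). Set against Control, Prox1 had an edgeR log2 fold change of 0.11 (SE 0.17) for S-V, 0.09 (SE 0.17) for D+V and -0.13 (SE 0.17) for D-V, each smaller than its standard error.

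Stxbp6, the SNARE-binding member, followed Prox1 closely. In Control, Stxbp6 was at 90.4, 139 and 162 CPM in replicates 1, 2 and 3, and in S-V at 133, 138, 148, 108 and 159 CPM in replicates 1 to 5. In D+V, Stxbp6 was at 139, 126, 103, 139.7 and 138 CPM, and in D-V at 131, 111, 100, 113 and 115 CPM. The libraries low in Prox1 were low again, and the range of Control again enclosed the 15 rotated libraries. Dsp, the desmosomal gene, was at 29.2, 64.4 and 67.2 CPM in Control, while its rotated libraries ran from 28.1 CPM in D-V replicate 2 to 69.6 CPM in D+V replicate 2. Trpc6 ran from 16 to 24.1 CPM in Control and from 14.3 to 25.7 CPM in the rotated libraries.

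C1ql2, the mossy fibre synapse gene, had the smallest p of any member against Control. In Control, C1ql2 was at 93.9, 138 and 143 CPM in replicates 1, 2 and 3, and in S-V at 112, 105, 117, 72.2 and 127 CPM in replicates 1 to 5. In D+V, C1ql2 was at 97.1, 97.2, 78.4, 81.1 and 88.2 CPM, and in D-V at 88.7, 86.2, 85.3, 111 and 97.8 CPM. Control replicates 2 and 3 lay above all 15 rotated libraries, whereas Control replicate 1 lay among them. Means ± SD of C1ql2 were 125 ± 27.1 CPM for Control (n = 3), 107 ± 20.8 for S-V, 88.4 ± 8.75 for D+V and 93.7 ± 10.7 for D-V (n = 5 each). In D+V the log2 fold change of C1ql2 was -0.47 (SE 0.15, unadjusted p = 0.00646), which did not pass the edgeR test after Benjamini-Hochberg adjustment over all genes (adjusted p = 0.119). It was -0.40 (SE 0.15, adjusted p = 0.712, edgeR) in D-V and -0.22 (SE 0.16, adjusted p = 0.562, edgeR) in S-V.

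The call on C1ql2 in D+V depended on the tool. DESeq2 called it lower (adjusted p = 0.0452) where 7.18% of 10580 genes were called, and limma voom with quality weights called it lower (log2 -0.55, adjusted p = 0.0252) where 12.7% of 14763 genes were called. The dependence of expression on transcript GC content differed between these groups. Its slope was 0.387 to 1.56 log2 units per unit of GC fraction in the 3 controls and -1.14 to -0.256 in the 5 D+V libraries. In S-V the slope was -0.643 to -0.0525, and in D-V it was -0.327 to 1.14. The transcript of C1ql2, at 63.3% GC, was the most GC-rich of the 9 members. After removal of GC and length trends, the difference of C1ql2 in D+V from Control was -0.30 (edgeR adjusted p = 0.672). The part of GC content in the C1ql2 differences was not tested. In a bulk sample, fewer granule cells and less RNA of a gene per granule cell cannot be told apart.

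Over all comparisons, Lct, the lactase gene, and Tdo2, the tryptophan-degrading enzyme, had the next smallest unadjusted p-values. That of Lct was in D+V against Control and that of Tdo2 in D-V against S-V. In Control, Lct was at 47.3, 80.4 and 100.3 CPM in replicates 1, 2 and 3, and in S-V at 79.3, 65.9, 88, 52.8 and 87.7 CPM in replicates 1 to 5. In D+V, Lct was at 65.1, 60.6, 30.5, 59 and 43.6 CPM, and in D-V at 67, 39.7, 48.4, 56.9 and 69.1 CPM. Control replicates 2 and 3 were above all 10 libraries rotated in both directions, and Control replicate 1 was within their range. The log2 fold change of Lct against Control was -0.52 (SE 0.24, adjusted p = 0.267, edgeR) in D+V and -0.42 (SE 0.24, adjusted p = 0.826, edgeR) in D-V, and -0.01 (SE 0.25) in S-V. Tdo2 was at 10.6, 8.09, 9.14, 7.46 and 13.6 CPM in S-V and at 6.72, 7.52, 6.63, 8.96 and 6.88 CPM in D-V. The groups overlapped, and the log2 difference of D-V from S-V was -0.41 (SE 0.19, unadjusted p = 0.0388, adjusted p = 0.751, edgeR).

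Calb1 and Glis3 did not share the order of the libraries. In Control, Calb1 was at 141, 163 and 148 CPM in replicates 1, 2 and 3, and in S-V at 157, 165, 164, 169.6 and 202 CPM in replicates 1 to 5. In D+V, Calb1 was at 203, 143, 139, 167 and 144 CPM, and in D-V at 164, 174, 139, 170.0 and 135 CPM. Calbindin mRNA was thus high in S-V replicate 5 and D+V replicate 1, and Control replicate 1, the lowest library for the members as a group, was only 1 of several near its lower end. Its largest group difference was in S-V against Control (log2 0.20, SE 0.12, adjusted p = 0.471, edgeR). Glis3, the zinc finger gene, was at 9.42, 17.3, 12.4, 11.5 and 12.9 CPM in D+V replicates 1 to 5, lowest of all 18 libraries in the very library that was highest for Calb1. In Control it was at 10.8, 11.1 and 16.8 CPM, and all 5 S-V libraries lay between 10.5 and 11.9 CPM.

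**Figure D2:**
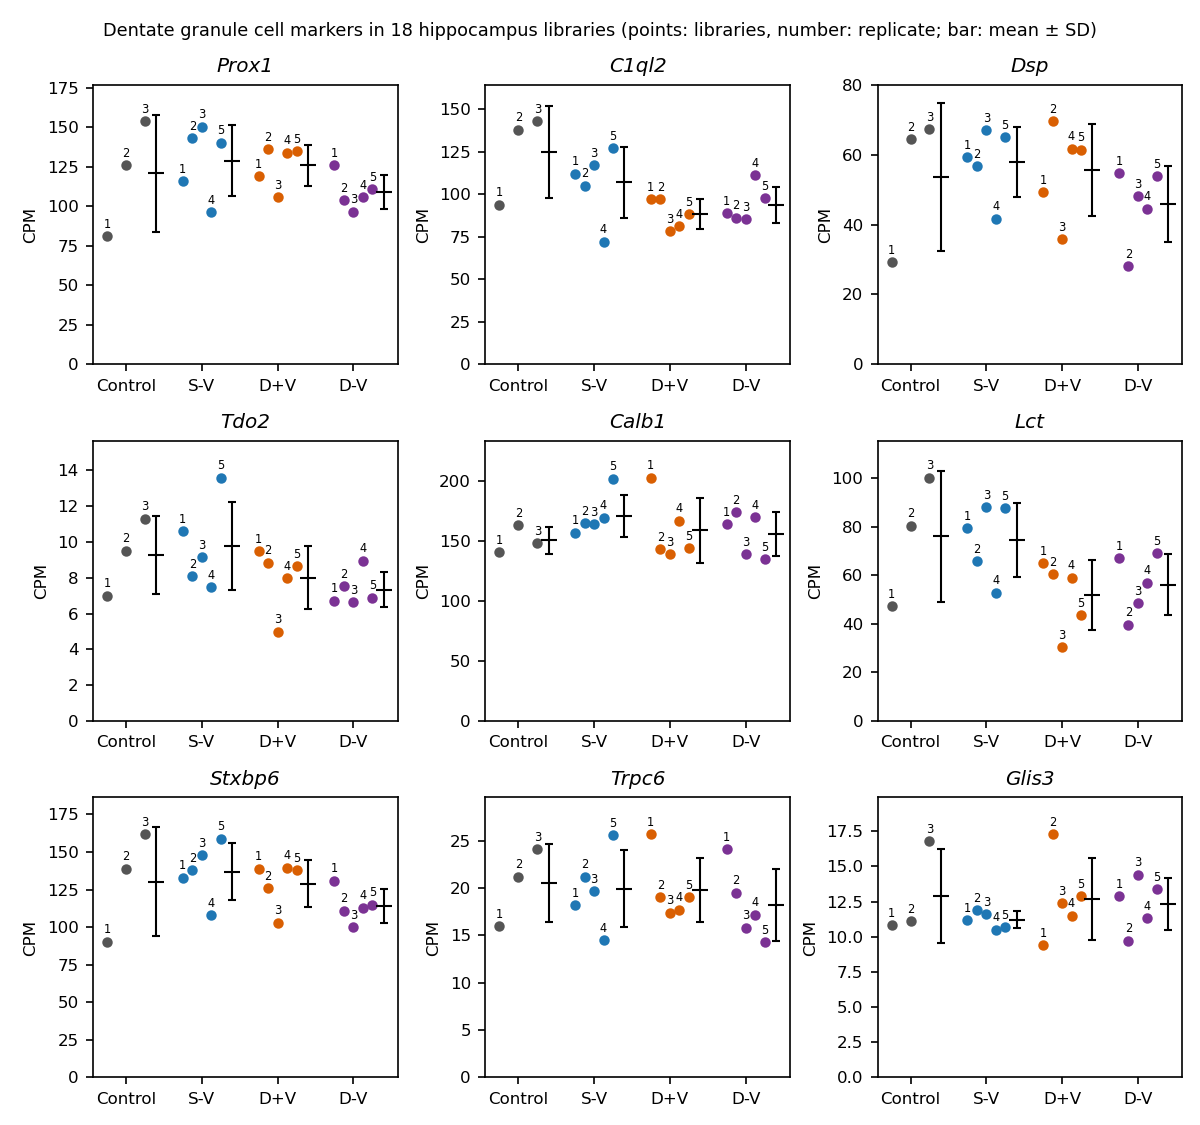
CPM of each member (one panel per gene, linear axis from 0) in the 18 libraries by group. Points are libraries with their replicate number, and the black bars are the group mean ± SD; in most panels Control replicates 1 and 3 are far apart, as for Prox1 at 81.1 and 154 CPM.

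No member was called in any of the 6 comparisons by the edgeR test at an adjusted p under 0.05. In S-V against Control 0 of 9 members passed, where 0% of the 14763 genes were called. The members' log2 fold changes were positive for 5 and negative for 4 with a median of 0.09, against 7471 positive and 7292 negative over all genes with a median of 0.002. In D+V against Control 0 of 9 members passed, where 0.908% of genes were called, 108 higher and 26 lower. There the members were positive for 5 and negative for 4 with a median of 0.02, against 7310 and 7453 over all genes with a median of -0.002. At an unadjusted p under 0.05 stood 0 of 9 members in S-V, where 13.7% of all genes did, 2 of 9 in D+V (C1ql2 and Lct, both lower), where 17.9% did, and 1 of 9 in D-V (C1ql2, lower), where 6.2% did. For D-V against S-V it was 1 of 9 (Tdo2) beside 6.44%, and for D-V against D+V 0 of 9 beside 13.7%. With 9 members these counts are too near the shares over all genes to be read as a result about the members.

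The group rotated in both directions without sight, D-V, had the lowest mean of the 4 groups for 5 members, Prox1, Dsp, Tdo2, Stxbp6 and Trpc6. C1ql2 and Lct were lowest in D+V, Glis3 in S-V and Calb1 in Control. In D-V against Control 0 of 9 members passed, where 0% of genes were called. The log2 fold change was negative for 8 of 9 members with a median of -0.18, against 7181 of 14763 genes with a median over all genes of 0.005. In D-V against S-V 0 of 9 members passed, where 0% of genes were called, and the difference was again negative for 8 of 9 with a median of -0.24, against 7389 of 14763 genes and a median of 0.00. In D-V against D+V 0 of 9 members passed, where 0% of genes were called, and it was negative for 7 of 9 with a median of -0.13, against 7045 of 14763 genes and a median of 0.009. These 3 comparisons share the D-V libraries, and the comparisons with Control share the controls. The members also varied together over the libraries (median r of 0.543 between pairs). The signs of the 9 members are therefore not 9 separate observations, and their counts are not read as a result.

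**Figure D3:**
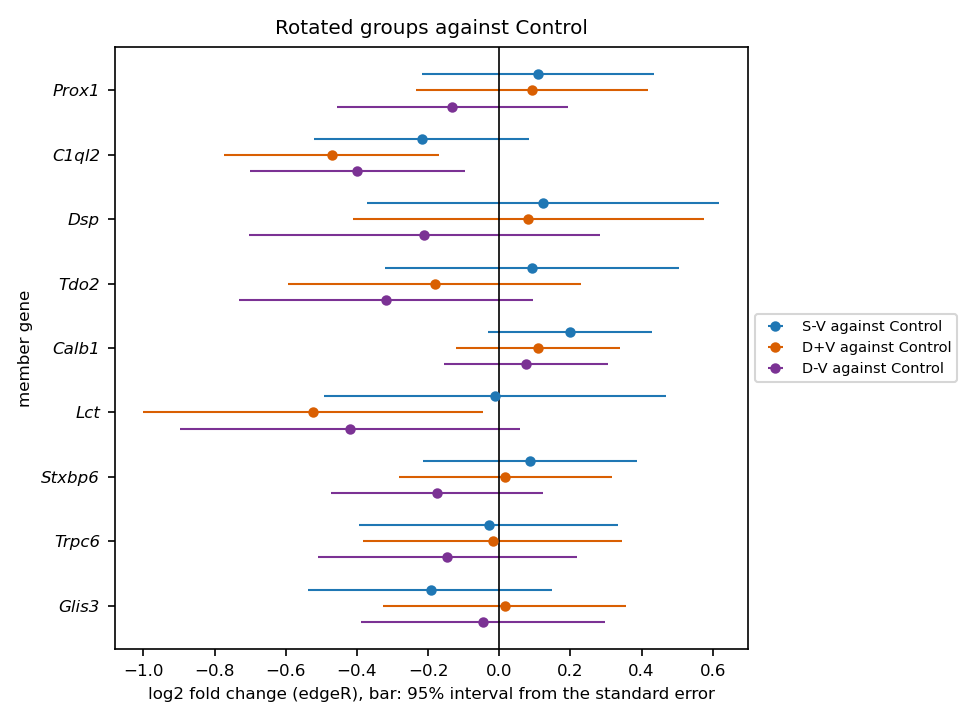
Log2 fold change of each member (rows) in S-V, D+V and D-V against Control, with bars for an approximate 95% interval from the standard error of the edgeR fit. Most bars cross 0; those of C1ql2 in D+V (-0.77 to -0.17) and D-V (-0.70 to -0.10) and of Lct in D+V do not, before adjustment over all genes.

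The mean of the 3 rotated groups was also set against Control. Here 0 of 9 members passed, where 0% of genes were called, and 1 of 9 members, C1ql2, had an unadjusted p under 0.05 beside 13.1% of all genes (log2 -0.36, SE 0.13, adjusted p = 0.242, edgeR). C1ql2 was at -0.54 without Control replicate 1 and at -0.25 without Control replicate 3. For Prox1 the same values were -0.20 and 0.24 around 0.02 with all controls, for Dsp -0.30 and 0.20 around -0.002, and for Lct -0.57 and -0.06 around -0.32. For Prox1 and Dsp the sign of the difference thus depended on which controls were present.

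Across the 18 libraries the members rose and fell together. Of the 36 pairs of members 33 had a positive Pearson correlation of log2 CPM, and the median was 0.543. After adjustment over the 36 pairs 22 passed a permutation test (21 positive and 1 negative), or 19 by Spearman's rho. Pairs of other genes were not tested, so these counts have no share over all genes beside them. They are not read as particular to the members. Prox1 and Stxbp6 were closest (r = 0.936, rho = 0.901, permutation p = 1e-05, adjusted p = 0.00036, n = 18 libraries), and this p is the smallest that 100000 permutations can give. Their r was 0.901 without the 2 libraries farthest from the median of Prox1, and 0.932 after each group's mean was subtracted. Prox1 and Dsp followed (r = 0.837, rho = 0.866, permutation adjusted p = 0.00036, n = 18), with r = 0.75 without the 2 farthest libraries. C1ql2 went most closely with Lct (r = 0.785, rho = 0.816, permutation adjusted p = 0.00144, n = 18), at 0.722 without the 2 farthest libraries and 0.744 within groups.

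The shared variation did not follow the groups. With group means subtracted 24 of 36 pairs passed, against 22 on the values as they were, and 19 passed with GC and length trends removed. The removal raised r between Prox1 and C1ql2, which differ in GC content (45.3% and 63.3%), from 0.546 to 0.879. Counts were lower with fewer libraries. Without the 2 libraries farthest from the median of the first gene of a pair, in the members' listed order, 13 pairs passed. Over the 12 libraries left when those rich in choroid plexus transcripts were set aside, 12 passed. The negative pair was Calb1 and Glis3 (r = -0.647, rho = -0.633, permutation adjusted p = 0.0115, n = 18), at -0.582 without the 2 farthest libraries and -0.447 with GC and length trends removed. Glis3 passed with no other member, and Calb1 with Tdo2 (r = 0.531) and Trpc6 (r = 0.612), which fell to 0.256 and 0.337 without the 2 farthest libraries and so rested on those samples.

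**Figure D4:**
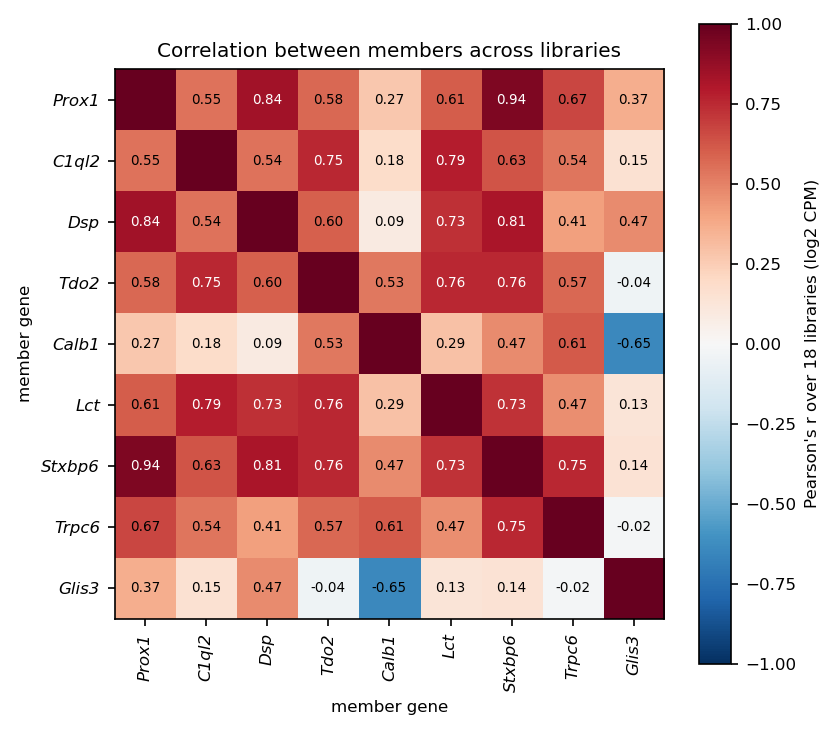
Pearson's r of log2 CPM over 18 libraries for each pair of members (color from -1 to 1, value in each cell). Prox1, Dsp and Stxbp6 form a block with r from 0.813 to 0.936, and the blue cells pair Calb1 with Glis3 at -0.647.

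The mean of other granule cell genes moved with that of the members. A wider list of 12 (Synpr, C1ql3, Plk5, Rfx3, Maml2, Dock10, Ahcyl2, Tiam1, Slc30a3, Gabrd, Pdyn and Tanc1) had a mean log2 CPM that correlated with that of the 9 members at r = 0.948 over the 18 libraries, and at 0.947 within groups. This correlation and those that follow are descriptions, in which all genes of a library share its total and its composition. The lists were also chosen with earlier results of these data known. Of the 12 genes 0 were called by edgeR in any of the 6 comparisons, although unadjusted p-values under 0.05 were held by 4 of 12 when D+V was set against Control, beside 17.9% of all genes, and by 3 of 12 when D-V was set against D+V, beside 13.7%. In the rotated mean against Control 6 were positive and 6 negative with a median of -0.01, and the 3 with the smallest unadjusted p were Pdyn, the dynorphin precursor (log2 -0.30, SE 0.12, adjusted p = 0.284, edgeR), Ahcyl2 (0.20, SE 0.10, adjusted p = 0.394, edgeR) and Gabrd, a GABA-A receptor subunit of extrasynaptic sites (-0.24, SE 0.12, adjusted p = 0.416, edgeR). Other tools called a few of them, named here after their values were seen. In D+V against Control limma voom called C1ql3 higher (log2 0.43, adjusted p = 0.0367) and Plk5 (-0.66, adjusted p = 0.0371) and Pdyn (-0.50, adjusted p = 0.0162) lower, which is 3 of 12 where it called 12.7% of all genes, and DESeq2 called 0 of 12 where it called 7.18%. In D-V against D+V Dock10 was called lower by DESeq2 (-0.31, adjusted p = 0.0493), where 2.23% of genes were called, and by limma voom (adjusted p = 0.034), where 5.55% were called. Single genes of the list ranged in r with the members' mean from 0.0425 for Ahcyl2 to 0.788 for Gabrd.

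Among 12453 genes outside the members averaging at least 1 on the log2 CPM scale, the most alike in pattern over the 18 libraries was the ephrin receptor gene Epha7 (r = 0.924 with the members' mean), which ran from 93.5 to 181 CPM. It was followed by Fam163b (r = 0.908), Kbtbd11 (0.904), Mcm6, a subunit of the replicative helicase (0.896), and Plekha2 (0.884). None of these 5 is on the lists used here. They were ranked by this likeness, so the values describe the choice.

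Genes known for the ventral hippocampus ran opposite to the members. The list of Trhr, Htr2c, Nr2f2, Dcn and Gpc3 correlated with the members' mean at r = -0.778 (rho = -0.812) over 18 libraries, at -0.738 within groups and at -0.8 in the 12 libraries poor in choroid plexus transcripts. Each of the 5 was negative, from -0.583 for Htr2c, which choroid plexus also expresses, to -0.699 for Dcn, which fibroblasts also express. Lct was the member most opposed to this list (r = -0.815), and Calb1 showed hardly any relation (r = -0.0353). Control replicate 3, highest for the members, had the lowest ventral mean of all libraries at -0.982, and Control replicate 1, lowest for the members, was at 0.29. Hilar mossy cell genes were also opposed (r = -0.684), as were striatal genes (r = -0.589).

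Markers of other cells were more loosely related or not. The r with the members' mean was 0.106 for CA1 and -0.309 for CA3 pyramidal genes, 0.127 for CA2, -0.338 for interneurons and 0.292 for newborn granule neurons and progenitors. It was -0.0867 for choroid plexus, -0.0317 for meningeal fibroblasts, -0.176 for astrocytes, 0.0577 for oligodendrocytes, 0.206 for microglia, -0.131 for endothelium and pericytes and 0.357 for thalamus and habenula. Library total gave 0.247 and the GC slope -0.199. Glis3 was opposed to the interneuron genes (r = -0.721), toward which Calb1 was positive (r = 0.509).

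**Figure D5:**
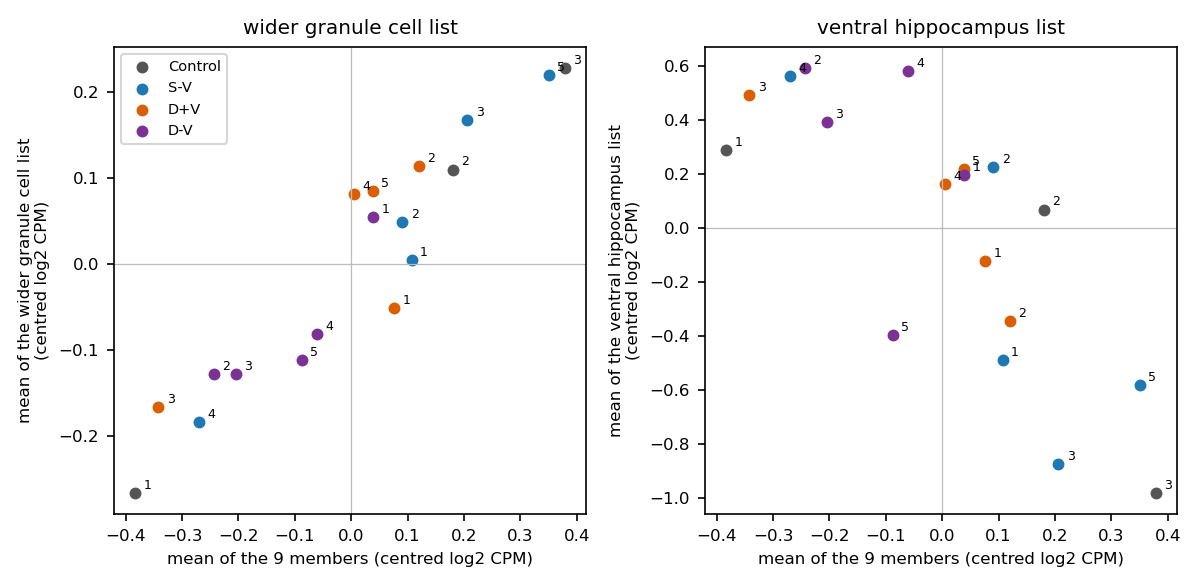
Mean centred log2 CPM of the 9 members (x axes) against that of 12 further granule cell genes (left) and 5 ventral hippocampus genes (right), with 1 point per library colored by group and numbered by replicate. The left points rise together (r = 0.948) and the right points fall (r = -0.778). The groups overlap along both, but D-V covers a narrower part of the x axes (-0.244 to 0.039) than Control (-0.383 to 0.379).

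Genes of neighbouring regions also differed in level between libraries and groups. The summed level of the 5 ventral genes ran from 62 to 151 CPM for Control, 71.1 to 192 for S-V, 112 to 166 for D+V and 92.4 to 201 for D-V. Of these genes Htr2c was highest in D-V replicate 3 (109 CPM) and Dcn in S-V replicate 4 (73.1 CPM), both rich in choroid plexus transcripts. Trhr, Nr2f2 and Gpc3 were highest in libraries poor in them. The sums are thus not a measure of ventral tissue alone. With the ventral mean as a covariate, added after seeing the data, the difference of C1ql2 in D-V from Control was -0.23 in place of -0.40, and that of Lct was -0.08 in place of -0.42. The 10 thalamus and habenula genes summed to 120 to 160 CPM for Control, 100 to 125 for S-V, 84.9 to 133 for D+V and 70.1 to 106 for D-V. With that mean as a covariate the difference of C1ql2 in D+V was -0.42 and that of Lct in D-V was -0.22. The 8 choroid plexus genes ran from 65.8 to 10762 CPM over all libraries, and without the 6 libraries rich in them C1ql2 in D+V was at -0.52. The part of these tissues in the members' differences was not tested.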

How the data were processed

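Polyadenylated RNA of mouse hippocampus was sequenced in 18 libraries. Estimated counts for each gene, without normalization, were deposited by the authors, per the file headers. Bowtie2 2.2.8, HISAT2, StringTie 1.3.1 and DESeq2 are listed in the submitters' processing notes with no roles. Genome build, annotation and strand use: not given in the sources used here.

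Estimated counts were rounded to whole numbers, of which 7.35% had not been whole. Genes were filtered with filterByExpr and scaled by TMM, and all 18 libraries entered a single fit of 4 group means tested by quasi-likelihood in edgeR 4.0.16 (R 4.3.3). P-values were adjusted by Benjamini-Hochberg over 14763 genes and called under 0.05. Common biological variation was 15.4%. CPM is the estimated count scaled to a library total of 1 M; correlations used TMM-scaled log2 CPM with a prior count of 2 and 100000 permutations. A list mean is the mean log2 CPM of its genes, centred over the 18 libraries. The 95% intervals come from the standard error alone. DESeq2 1.42.0 and limma 3.58.1 were alternatives, with other scalings, filters, covariates and left-out libraries. Choroid plexus-rich libraries were those with Ttr of at least 1000 CPM, a limit chosen after seeing the data. The closest libraries of a group differed by a chi-square of 5.5 per degree of freedom, so none was counted as a repeat. Counting error alone does not set the precision, since PCR copies were not marked.

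The members and gene lists were chosen with earlier results of these data known. The text names all members, 3 genes of the wider list by smallest p in the rotated mean, and the 5 genes most alike in pattern. Symbols were matched by Ensembl identifier for 21973 of 22063 genes.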

Additional observations from a re-analysis of the deposited data

Results flagged for a closer look

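Within the 27 sets of 5 libraries formed by the 9 members in the 3 rotated groups, 2 single libraries stood far from the others of their group by Dixon's criterion at 95%, which by chance picks about 1 in 20 such sets. Calb1 was at 202 CPM in S-V replicate 5, and the nearest other S-V library was at 169.6 CPM, a gap of 0.713 of the group's range. Trpc6 was at 25.7 CPM in D+V replicate 1, and the nearest other D+V library was at 19 CPM, a gap of 0.811 of the range.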

How the results depend on the processing

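Over 6 comparisons and all alternatives, 131 of 133 fits called 0 members. The exceptions were DESeq2 and limma voom in D+V against Control, where each called 1 member, C1ql2. Leaving out each library in turn called 0 members in every comparison. Of the 19 member fold changes that were refitted, 13 kept their sign in every alternative. The others were differences near 0 between the rotated mean and Control. With GC and length trends removed Prox1 moved from 0.02 to -0.061 and Dsp from -0.002 to 0.029. Without one library at a time the rotated mean against Control ran from -0.20 (without Control replicate 1) to 0.24 for Prox1, from -0.30 (without Control replicate 1) to 0.20 (without Control replicate 3) for Dsp, from -0.31 to 0.035 for Tdo2, from -0.24 to 0.16 for Stxbp6, from -0.22 to 0.074 for Trpc6 and from -0.20 to 0.17 for Glis3, each with its highest value without Control replicate 3 and its lowest without Control replicate 1. Dsp, at -0.002 with all libraries, was also positive without Control replicate 2 (0.16), S-V replicate 2 (0.002), S-V replicate 4 (0.03), D+V replicate 1 (0.01), D+V replicate 3 (0.04), D-V replicate 2 (0.04) and D-V replicate 4 (0.001), and Stxbp6 without Control replicate 2 (0.03) and S-V replicate 4 (0.005). With the thalamus and habenula mean as a covariate Dsp was at 0.04 and Trpc6 at 0.14, with the choroid plexus mean Stxbp6 was at 0.003, and with limma voom Glis3 was at 0.022. With the ventral mean as a covariate, added after seeing the data, Dsp was at 0.15, Stxbp6 at 0.071, Trpc6 at 0.001 and Glis3 at 0.012. Without the 6 choroid plexus-rich libraries, also chosen after seeing the data, Stxbp6 was at 0.027 and Trpc6 at 0.016. The cause of these changes of sign was not tested.

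Of the 36 member pairs, 22 correlations passed on all libraries and 16 to 23 without one library at a time. Without the 2 libraries farthest from the median of each pair's first gene 13 passed, and without the choroid plexus-rich libraries 12. The settings with libraries left out also hold fewer samples.

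Replicate numbers did not pair the libraries: over 24 same-numbered pairs of different groups the deviations correlated with a median of 0.00753 (-0.452 to 0.34), 9 were over 0.1, and 3 of 18 libraries correlated best with their own number. With the replicate number as a block 0 members were called in every comparison, and C1ql2 in D+V was at -0.46 (edgeR adjusted p = 0.203).

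The 3 controls had an SD of 37 CPM for Prox1; its standard error was 0.17 on the log2 scale in comparisons of a single rotated group with Control and 0.14 in those between rotated groups. Tdo2, Glis3 and Trpc6 had the fewest counts of the members. DESeq2 gave no adjusted p for Tdo2 in D-V against S-V.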

Other observations

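The 5 genes below were the most opposed to the members' mean over the 18 libraries, chosen by that value. Tcerg1l (r = -0.871) ran from 5.43 to 21.9 CPM, the arginine and lysine transporter gene Slc7a3 (r = -0.87) from 3.57 to 8.43 CPM, and Timp2, an inhibitor of matrix metalloproteinases (r = -0.861), from 173 to 408 CPM. Dlk1, an imprinted gene of the Notch ligand family (r = -0.861), had a wide range, from 3.22 to 30.1 CPM. Wnt5a, which encodes a secreted Wnt ligand (r = -0.858), ran from 8.69 to 14.5 CPM.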
